A study of Mus musculus with 24 samples.

Results

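Fas and 8 further receptors of the tumour necrosis factor (TNF) receptor superfamily were followed in 2 mouse tumour cell lines: Fas, Tnfrsf1a, Tnfrsf10b, Tnfrsf21, Tnfrsf1b, Cd40, Ltbr, Tnfrsf12a and Eda2r. They are 9 of the 43629 genes in the count table, listed by name with earlier results of these data known, though the list itself applies no threshold to measured values. E0771 is a line from a mouse breast adenocarcinoma and MC38 a line from a mouse colon adenocarcinoma. Treatment lasted 3 h and was DMSO (the solvent, as control), RG6146 at 2.5 µM, TNF at 10 ng/mL, or TNF plus RG6146 at those doses, called the combination below. RG6146 is an inhibitor of BET bromodomains, the modules through which BRD-family proteins bind acetylated histones. Each line and treatment had 3 libraries, 24 in all, and the labels name no other agent or genetic change. The growth notes, however, give MC38-Ova, an ovalbumin-expressing variant, for all 24 libraries, those labelled E0771 included. Each library is assigned to a line by its label below. Whether replicates were separate cultures is not stated, so a p-value reflects the spread among these libraries alone, which may be technical.

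Receptors of this superfamily sit in the cell membrane, bind trimeric ligands of the TNF family and signal through adaptor proteins held to their cytoplasmic tails. Those with a death domain (Fas, Tnfrsf1a, Tnfrsf10b and Tnfrsf21 here) can recruit FADD or TRADD and, through caspase-8 or RIPK1, start cell death, while the others recruit TRAF proteins that lead to NF-kB and stress kinases. TNF itself signals through Tnfrsf1a and Tnfrsf1b, and NF-kB, once active, raises the transcription of many genes, among them several receptors and inhibitors of the same pathway.

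The start-site windows of 3 receptors are printed because these receptors rose with TNF in at least 1 line and had a RefSeq entry (GRCm38.p6), which covers 250 bases before to 50 bases after the gene's start. Such windows were matched for 7 of the 9 genes. The Fas window lies on the plus strand at chr19:34290409-34290708, that of Tnfrsf1b on the minus strand at chr4:145246821-145247120, and that of Eda2r on the minus strand at chrX:97377160-97377459. Letters in capitals mark matches to the motifs searched, and all other bases are in lower case, 5′ to 3′ on the gene's strand.
Fas: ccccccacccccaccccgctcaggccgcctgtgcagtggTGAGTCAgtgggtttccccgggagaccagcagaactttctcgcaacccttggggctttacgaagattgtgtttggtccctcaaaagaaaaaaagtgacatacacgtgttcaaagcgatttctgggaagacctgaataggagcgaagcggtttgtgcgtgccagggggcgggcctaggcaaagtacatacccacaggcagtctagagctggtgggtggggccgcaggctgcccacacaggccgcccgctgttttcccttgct
Tnfrsf1b: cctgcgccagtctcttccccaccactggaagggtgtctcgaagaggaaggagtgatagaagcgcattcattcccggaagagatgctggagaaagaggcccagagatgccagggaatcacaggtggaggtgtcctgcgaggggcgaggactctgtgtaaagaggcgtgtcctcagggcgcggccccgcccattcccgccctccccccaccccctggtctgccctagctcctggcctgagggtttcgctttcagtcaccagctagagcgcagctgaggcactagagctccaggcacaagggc
Eda2r: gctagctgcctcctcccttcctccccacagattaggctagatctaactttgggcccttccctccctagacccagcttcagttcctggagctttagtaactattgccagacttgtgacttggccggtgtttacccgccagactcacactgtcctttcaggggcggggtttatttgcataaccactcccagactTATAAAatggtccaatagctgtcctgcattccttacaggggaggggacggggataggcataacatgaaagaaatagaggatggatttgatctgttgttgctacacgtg
On both strands, 5 motifs were searched: the NF-kB decamer consensus and the p53 half-site consensus, both with ambiguous positions, a narrower NF-kB form GGGNNTTTCC that overlaps the first, the AP-1 heptamer TGANTCA, which reads alike on both strands, and the TATA box TATAAA. Fas held 1 AP-1 match from 211 to 205 bases before the start, a motif present in 7.81% of the 32851 RefSeq windows. Eda2r held 1 TATA box from 58 to 53 bases before the start, present in 13.6% of windows. The letters of either NF-kB form (4.51% and 1.63% of windows) and of the p53 half-site (8.36%) were in none of the 7 windows. A match is a description of the sequence and the absence of one says only that these letters are not in that window. Tnfrsf10b and Cd40 are named only.

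Libraries of E0771 held 5392406 to 9132814 counts and those of MC38 5392808 to 9673118. Values per library are given below as counts or as CPM, the count relative to the library's total scaled with TMM factors over all 24 libraries, and groups as mean ± SD of 3 libraries. Of the 9 markers of epithelial cells, 7 had a count in each line, with a summed level of 86.1 to 118 CPM in E0771 and of 0 to 0.965 CPM in 11 MC38 libraries (8.49 in the other one, combination replicate 2), so the epithelial origin of MC38 was hardly visible in its transcripts. Conversely, the 7 fibroblast markers summed to 201 to 355 CPM in MC38 and 19.8 to 71.6 CPM in E0771, where Col1a2 was at 0. Endothelial markers summed to at most 16.2 CPM in any library. In 4 libraries other measures stood apart. In MC38 DMSO replicate 2, 0.609% of counts were mitochondrial ribosomal RNA, and in E0771 TNF replicate 2 0.376%, where all others had 1.69% to 3.23%, and MC38 TNF replicate 1 had a root mean square log2 distance of 0.591 within its group, where the other 2 had 0.382 and 0.385. By the same distance E0771 TNF replicate 3 was at 0.566 and MC38 DMSO replicate 3 at 0.533, though neither was counted among the 4. MC38 combination replicate 2 held leukocyte transcripts: the 17 markers summed to 1334 CPM there and to 5.02 to 24.5 CPM in the other 11 MC38 libraries, with 195 counts of Ptprc (CD45), 9185 of S100a8, 432 of Lyz2 and 44 of Cd8a, while Cd4, Cd79a and Adgre1 were at 0. In E0771 the same markers summed to 113 to 201 CPM, with Cd4 and Adgre1 at 0. Of the 5 leukocyte markers tested in MC38, 3 were called higher in the combination than with TNF, where 3.7% of all genes were. Combination replicates 1 and 3 had only 1 and 1 counts of Ptprc, 0 and 3 of Lyz2 and 91 and 8 of S100a8.

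TNF raised the Fas transcript in both lines, and RG6146 given with TNF lowered it again in both. Beyond Fas, TNF raised Tnfrsf1b and Cd40 in E0771 and Eda2r in MC38, and lowered no member in either line. RG6146 alone lowered Tnfrsf1a and Ltbr in E0771 and Eda2r in MC38. Calls are at an adjusted p under 0.05 by edgeR's quasi-likelihood F test, with Benjamini-Hochberg adjustment over all genes tested, and this test stands behind every adjusted p below. In E0771, 7 of the 9 passed the filter on low counts (Tnfrsf21 and Eda2r did not), and in MC38, 8 passed (Cd40 did not).

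**Figure D1:**
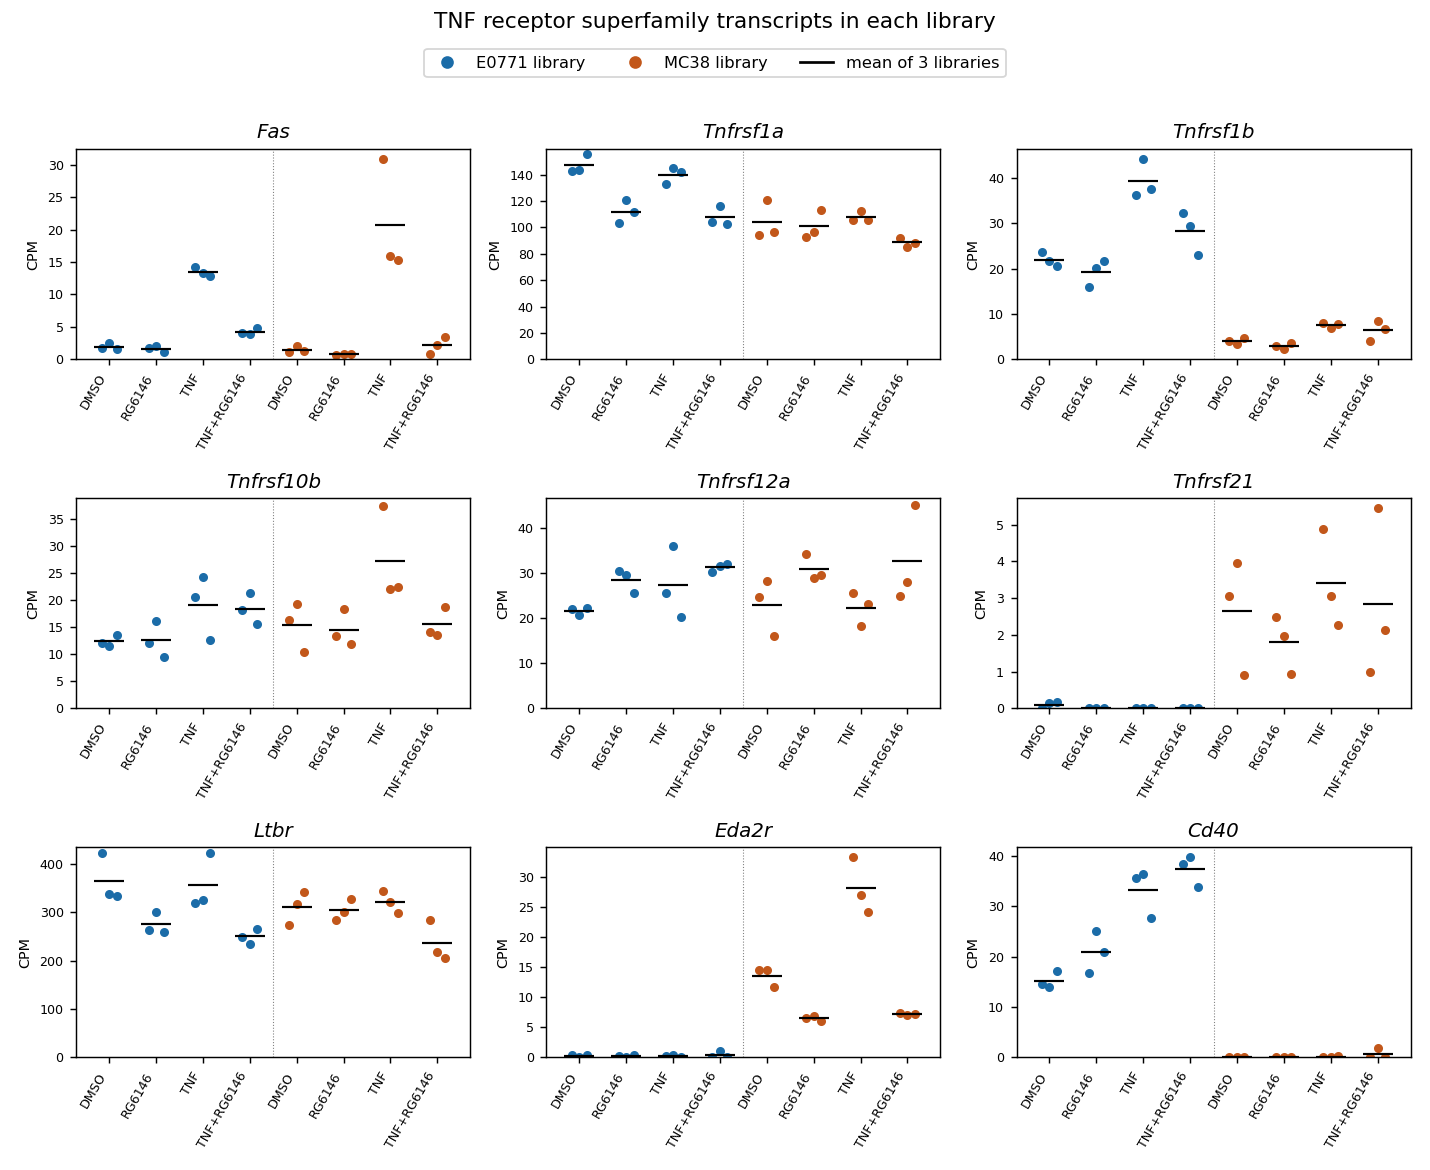
CPM of each receptor transcript (vertical axes, linear from 0, each with its own scale) in the 24 libraries by line and treatment; points are libraries and bars means of 3. Fas was at 12.8 to 30.9 CPM in all 6 TNF libraries and at most 4.90 CPM elsewhere, and Cd40 in MC38 and Eda2r and Tnfrsf21 in E0771 lay at or near 0.

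Fas encodes the receptor for Fas ligand, through which T cells and natural killer cells can kill a target cell. The gene lies on the plus strand at chr19:34290666-34327772 (GRCm38), and no other gene's exons overlap its own, as was so for all 9. In E0771 it had 11, 19 and 9 counts with DMSO and 104, 116 and 69 with TNF, which is 1.69, 2.55 and 1.53 CPM against 14.2, 13.3 and 12.8 CPM. In MC38 it had 6, 20 and 8 counts with DMSO and 196, 130 and 101 with TNF, which is 1.08, 1.98 and 1.21 CPM against 30.9, 15.9 and 15.3 CPM. All TNF libraries lay above all DMSO libraries in both lines, and the 3 TNF libraries of E0771 lay close together while MC38 TNF replicate 1 lay well above the other 2. The fitted rise was 2.74 ± 0.24 (log2 ± SE, 6.68-fold, adjusted p = 5.79e-06) in E0771 and 3.80 ± 0.42 (13.9-fold, adjusted p = 0.000189) in MC38. Without MC38 TNF replicate 1 it was 3.38 in MC38 (adjusted p = 0.000397). These are transcripts from bulk cultures, in which more expressing cells and more RNA per cell cannot be told apart.

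RG6146 without TNF left Fas at 10, 11 and 6 counts in E0771 (1.06 to 2.02 CPM) and at 5, 7 and 6 counts in MC38 (0.656 to 0.855 CPM). The fitted difference from DMSO was -0.25 ± 0.32 (adjusted p = 0.711) in E0771, where the groups overlapped. It was -0.95 ± 0.56 (adjusted p = 0.351) in MC38, where the 3 RG6146 libraries lay below the 3 DMSO libraries on 5 to 20 counts each.

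In the combination Fas had 21, 21 and 26 counts in E0771 (3.87 to 4.90 CPM) and 6, 16 and 18 in MC38 (0.840 to 3.47 CPM). Both groups lay wholly below the TNF libraries of their line. Compared with TNF alone Fas fell by 1.62 ± 0.22 on the log2 scale in E0771 (to 0.325 of the TNF level, adjusted p = 0.000182). In MC38 it fell by 3.35 ± 0.41 (to 0.0983 of the TNF level, adjusted p = 0.000263), and by 3.38 without the library that held leukocyte transcripts (adjusted p = 0.00228). The sum of the 7 fibroblast markers was likewise highest with TNF in both lines. In E0771, where Col1a2 was at 0, it was 41.6 to 48.9 CPM with DMSO, 52.4 to 71.6 with TNF, 19.8 to 24.3 with RG6146 and 22 to 28.2 in the combination. In MC38 it was 277 to 290, 303 to 355, 212 to 241 and 201 to 244 CPM in the same order. The growth factor receptors Pdgfra and Pdgfrb, 2 of its members, were called lower in the combination than with TNF in both lines. Of all genes tested, 9.46% in E0771 and 7.6% in MC38 were called lower in that comparison. Calls of the other members are not given here, and the part of this list in the Fas result was not tested.

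Fas in the combination was also compared with DMSO and with RG6146 alone. In E0771 each of the 3 combination libraries lay above all DMSO and RG6146 libraries, with a rise of 1.12 ± 0.27 over DMSO (adjusted p = 0.0121) and of 1.37 ± 0.29 over RG6146 (adjusted p = 0.0486). The rise over DMSO lost its call without DMSO replicate 1 or 3 or combination replicate 3 (adjusted p = 0.0508 to 0.0554), and that over RG6146 lost it without any 1 of the 6 libraries (adjusted p = 0.0922 to 0.265), with DESeq2 (0.105), with limma-voom (0.0957) and with library totals (0.0678). In MC38 the combination overlapped both DMSO (0.45 ± 0.50, adjusted p = 0.646) and RG6146 (1.40 ± 0.55, adjusted p = 0.855). On the scale of levels, the mean of Fas rose by 11.5 CPM with TNF and was 2.63 CPM higher in the combination than with RG6146 in E0771. In MC38 the same 2 differences were 19.3 and 1.38 CPM.

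Ordered by mean over the 8 groups, Fas was at 20.7 ± 8.8 CPM in MC38 with TNF, 13.4 ± 0.69 in E0771 with TNF and 4.25 ± 0.56 in the E0771 combination. These 3 groups did not overlap with each other. The next 4, from the MC38 combination at 2.15 ± 1.3 through E0771 DMSO at 1.92 ± 0.55 and E0771 RG6146 at 1.63 ± 0.50 to MC38 DMSO at 1.42 ± 0.49, overlapped neighbour by neighbour. MC38 with RG6146 was lowest at 0.769 ± 0.10 CPM.

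Tnfrsf1a encodes the ubiquitously expressed TNF receptor that carries a death domain (chr6:125349362-125362484, plus strand). It was at 143, 143 and 156 CPM in E0771 with DMSO, 133, 145 and 142 with TNF, 103, 121 and 112 with RG6146 and 104, 116 and 103 in the combination. The RG6146 and combination libraries of E0771 all lay below its DMSO and TNF libraries. The receptor fell by 0.38 ± 0.09 on the log2 scale with RG6146 (to 0.768 of DMSO, adjusted p = 0.0156) and by 0.34 ± 0.09 in the combination against TNF (adjusted p = 0.0206). The first call was lost without DMSO replicate 3 or RG6146 replicate 1 or 3 (adjusted p = 0.0663 to 0.0874), the second without combination replicate 1 or 3 (0.0835 and 0.0856) or with only the 2 groups in the fit (0.117), but the fall of 0.45 ± 0.09 from DMSO to the combination (adjusted p = 0.00423) held in all 13 alternatives run for it.
In MC38 Tnfrsf1a was at 104 ± 15 CPM with DMSO, 108 ± 4.1 with TNF, 101 ± 11 with RG6146 and 88.8 ± 3.4 in the combination, and no comparison within the line was called. The combination libraries lay below those of the other 3 groups, with -0.32 ± 0.13 against TNF (adjusted p = 0.129). In order of mean, E0771 DMSO and TNF came first and overlapped, the next 5 groups overlapped neighbour by neighbour between 112 and 101 CPM, and the MC38 combination lay below them. With DMSO the level in E0771 was 0.50 ± 0.11 log2 units above MC38 (adjusted p = 0.00039).

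Tnfrsf10b encodes the mouse receptor for TRAIL that signals death (chr14:69767472-69784411, plus strand). With TNF it had 151, 211 and 68 counts in E0771 against 79, 85 and 79 with DMSO, which is 20.6, 24.2 and 12.6 against 12.1, 11.4 and 13.4 CPM. Replicate 3 lay within the DMSO range, and the difference of 0.62 ± 0.23 was not called (adjusted p = 0.241). Without that replicate it was 0.84 (adjusted p = 0.0236). With the libraries that stood apart left out, in E0771 TNF replicate 2, the highest here, it was 0.45 (adjusted p = 0.346). Of 13 alternatives, 2 called the difference. In MC38 Tnfrsf10b was at 37.3, 21.9 and 22.5 CPM with TNF, above 16.3, 19.3 and 10.4 CPM with DMSO (0.83 ± 0.27, adjusted p = 0.213), a difference of 0.52 without TNF replicate 1. In the MC38 combination it was at 14.1, 13.5 and 18.7 CPM, below all TNF libraries, at -0.86 ± 0.27 against TNF (adjusted p = 0.0592 by edgeR and 0.0457 by DESeq2). This difference was -0.55 without TNF replicate 1 (adjusted p = 0.235) and -0.77 without the library with leukocyte transcripts (adjusted p = 0.18). Without the 4 libraries that stood apart it was -0.47 (adjusted p = 0.317), and 3 of 13 alternatives called it. In the E0771 combination Tnfrsf10b stayed at 18.4 ± 2.9 CPM, at -0.04 ± 0.23 against TNF (adjusted p = 0.927), and RG6146 alone gave 12.5 ± 3.4 CPM in E0771 and 14.5 ± 3.4 in MC38, differences from DMSO of 0.04 ± 0.24 and -0.11 ± 0.28. Every neighbour in the order of the 8 group means, from 27.2 ± 8.8 CPM in MC38 with TNF to 12.3 ± 1.0 in E0771 with DMSO, overlapped the next.

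Tnfrsf21 encodes a death receptor that binds fragments of the amyloid precursor protein in neurons (chr17:43016555-43089189, plus strand). It was largely an MC38 transcript: E0771 had 2 counts over its 12 libraries, both with DMSO, and MC38 had 235. With DMSO MC38 had 63 counts against 2, a ratio of 27.6 relative to the library totals (95% exact interval 7.32 to 233, counting error only). Within MC38 it ranged over 6 to 40 counts with DMSO, 7 to 19 with RG6146, 15 to 31 with TNF and 7 to 41 in the combination. All 4 groups overlapped, and no comparison was called (TNF against DMSO 0.34 ± 0.58, adjusted p = 0.832). The 41 counts (5.44 CPM) were in the combination library that held leukocyte transcripts, against 7 and 11 counts in the other 2. The part of those transcripts in its Tnfrsf21 count was not tested.

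Tnfrsf1b encodes the inducible TNF receptor without a death domain (chr4:145213463-145246870, minus strand). In E0771 it rose from 23.6, 21.6 and 20.6 CPM with DMSO to 36.3, 44.2 and 37.6 CPM with TNF. No TNF library overlapped with DMSO, and the rise was 0.81 ± 0.15 on the log2 scale (1.75-fold, adjusted p = 0.00639), called in all 13 alternatives. In MC38 it was at 4.13, 3.26 and 4.68 CPM with DMSO and 8.03, 6.86 and 7.74 with TNF, a difference of 0.93 ± 0.29 on 23 to 56 counts per library that was not called (adjusted p = 0.187). The difference between the responses of the lines was -0.08 ± 0.30 (adjusted p = 0.951). Together with RG6146, Tnfrsf1b in E0771 was at 32.2, 29.5 and 23.0 CPM, below every TNF library, with -0.45 ± 0.15 against TNF (adjusted p = 0.0503 by edgeR, and 0.0333 to 0.205 over its 13 alternatives, 6 of which called it). RG6146 alone gave 19.2 ± 3.0 CPM in E0771 and 2.93 ± 0.63 in MC38, both overlapping DMSO.
In the MC38 combination the levels were 3.92, 8.36 and 6.75 CPM, the highest again in the library with leukocyte transcripts. The difference from RG6146 was 1.12 ± 0.30 (unadjusted p = 0.00232, adjusted p = 0.346), and 0.84 without that library, whose leukocyte content was otherwise not tested as a source of the count. The E0771 groups all lay above the MC38 groups, and with DMSO the lines differed by 2.46 ± 0.23 (5.52-fold, adjusted p = 2.93e-09). Among the E0771 groups TNF was first and apart from the combination, and the combination, DMSO and RG6146 overlapped in turn. The 4 MC38 groups, from 7.54 ± 0.61 with TNF to 2.93 CPM with RG6146, overlapped neighbour by neighbour.

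Cd40 encodes the receptor for CD40 ligand on antigen-presenting cells and some tumour cells (chr2:165055627-165072948, plus strand). In E0771 it had 95, 104 and 101 counts with DMSO and 261, 318 and 149 with TNF, or 14.6, 14 and 17.2 against 35.6, 36.4 and 27.7 CPM. It rose by 1.10 ± 0.16 on the log2 scale (2.15-fold, adjusted p = 0.0011), with all TNF libraries above all DMSO libraries. With RG6146 it was at 16.7, 25.0 and 20.9 CPM, overlapping DMSO (0.47 ± 0.17, adjusted p = 0.0969). In the combination it was at 38.5, 39.8 and 33.9 CPM, which overlapped TNF (0.20 ± 0.15, adjusted p = 0.436) and lay above DMSO (1.30 ± 0.16, adjusted p = 9.9e-05) and RG6146 (0.83 ± 0.16, adjusted p = 0.0247). Of the 3 receptors raised by TNF in E0771, Fas was called lower in the combination than with TNF, Tnfrsf1b just missed the threshold, and Cd40 was as high or higher in its mean. The call against RG6146 was lost without RG6146 replicate 1 or 3 or without any 1 of the combination libraries (adjusted p = 0.0538 to 0.18).
In MC38 Cd40 had 0 counts in all DMSO libraries, 1 with RG6146, 3 with TNF and 14 in the combination, all 14 in the replicate with leukocyte transcripts. Against 300 counts in the E0771 DMSO libraries this is at least 114-fold lower, with 3 counts over the group taken as the floor. The order of means in E0771 was combination and TNF, which overlapped, then RG6146 and DMSO, which overlapped, then the 4 MC38 groups at 0.619 CPM or less.

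Ltbr encodes the receptor for membrane lymphotoxin and LIGHT, which activates the non-canonical NF-kB pathway (chr6:125306571-125313885, minus strand), and its gene is separated from Tnfrsf1a by 35476 bases. In E0771 it was at 422, 337 and 333 CPM with DMSO, 319, 325 and 423 with TNF, 264, 301 and 259 with RG6146 and 249, 234 and 266 in the combination. Both groups given RG6146 lay below both groups without it. Ltbr fell by 0.39 ± 0.12 with RG6146 (adjusted p = 0.0486) and by 0.47 ± 0.12 in the combination against TNF (to 0.72 of TNF, adjusted p = 0.0142). The first call was lost without any 1 of its 6 libraries (adjusted p = 0.0612 to 0.224) and with limma-voom (0.0533), the second without combination replicate 1 or 2 (0.051 and 0.0716) and with only the 2 groups in the fit (0.0822), while the fall of 0.54 ± 0.12 from DMSO to the combination (adjusted p = 0.00656) was called in all 13 alternatives.
In MC38 it was at 274, 316 and 342 CPM with DMSO, 283, 301 and 327 with RG6146, 343, 320 and 299 with TNF and 284, 218 and 205 in the combination. The combination lay below TNF by 0.48 ± 0.14 (adjusted p = 0.037), a call lost without any TNF replicate or without combination replicate 2 or 3 (adjusted p = 0.0515 to 0.136), and with only the 2 groups in the fit (0.0968). Without the 4 libraries that stand apart the difference was -0.37 (adjusted p = 0.191), and 5 of 13 alternatives kept the call. RG6146 alone gave -0.06 ± 0.14 in MC38 (adjusted p = 0.853), and the difference of the RG6146 response between lines was -0.37 ± 0.19 (unadjusted p = 0.062, adjusted p = 0.464). Neighbours in the order of its 8 group means, from 364 ± 50 CPM in E0771 DMSO to 236 ± 42 in the MC38 combination, all overlapped.

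Tnfrsf12a encodes Fn14, the receptor for TWEAK, which is induced by growth factors and tissue injury (chr17:23675445-23677468, minus strand). In E0771 it was at 22.1, 20.7 and 22.3 CPM with DMSO, 30.4, 29.6 and 25.7 with RG6146, 25.5, 36.1 and 20.3 with TNF and 30.3, 31.7 and 32 in the combination. Both groups given RG6146 lay above DMSO. RG6146 alone differed from DMSO by 0.41 ± 0.17, which was not called (adjusted p = 0.143) and was called in 2 of 13 alternatives. The rise in the combination was 0.53 ± 0.17 (1.45-fold, adjusted p = 0.0429), a call lost without any 1 of the 6 libraries (adjusted p = 0.0899 to 0.122) and with library totals (0.0983). With TNF the highest value was in replicate 2, the library low in mitochondrial ribosomal RNA. Without it the combination lay 0.45 above TNF (adjusted p = 0.0236) in place of 0.22 ± 0.16 (adjusted p = 0.403), and whether the RNA share bears on this was not tested. In MC38 both groups given RG6146 again had the higher means, with 23.0 ± 6.2 CPM for DMSO, 30.9 ± 2.9 for RG6146, 22.3 ± 3.7 for TNF and 32.7 ± 11 in the combination, and none of the 5 comparisons was called (RG6146 against DMSO 0.39 ± 0.24, adjusted p = 0.379). All neighbours in the order of its 8 group means overlapped.

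Eda2r encodes the receptor for ectodysplasin A2, a receptor without a death domain that is a p53 target (chrX:97333840-97377216, minus strand). It was an MC38 transcript, with 1190 counts over the 12 libraries of that line and 18 over those of E0771. With DMSO the counts were 305 and 4, a ratio of 66.7 (95% exact interval 25.8 to 247, counting error only). In MC38 it had 81, 147 and 77 counts with DMSO (14.6, 14.5 and 11.6 CPM), 211, 221 and 159 with TNF (33.2, 27.1 and 24.1 CPM), 50, 56 and 45 with RG6146 (6.56, 6.84 and 5.98 CPM) and 53, 53 and 37 in the combination (7.42, 7.03 and 7.14 CPM). None of the 4 groups overlapped any other, and the combination lay just above RG6146. Eda2r rose by 1.06 ± 0.17 with TNF (2.09-fold, adjusted p = 0.00421) and fell by 1.09 ± 0.18 with RG6146 (to 0.469 of DMSO, adjusted p = 0.00252). In the combination it fell by 2.0 ± 0.18 against TNF (to 0.25 of TNF, adjusted p = 2.61e-05) and by 0.94 ± 0.18 against DMSO (adjusted p = 0.00537). Against RG6146 the combination differed by 0.15 ± 0.19 (adjusted p = 1.0). The TNF call alone was lost in 1 of its 13 alternatives, the fit of only the 2 groups compared (1.05, adjusted p = 0.0821), and without the 4 libraries that stood apart the rise was 0.97 (adjusted p = 0.0294). In E0771 its 18 counts lay between 0 and 6 per library in every group and no test was made within the line.

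**Figure D2:**
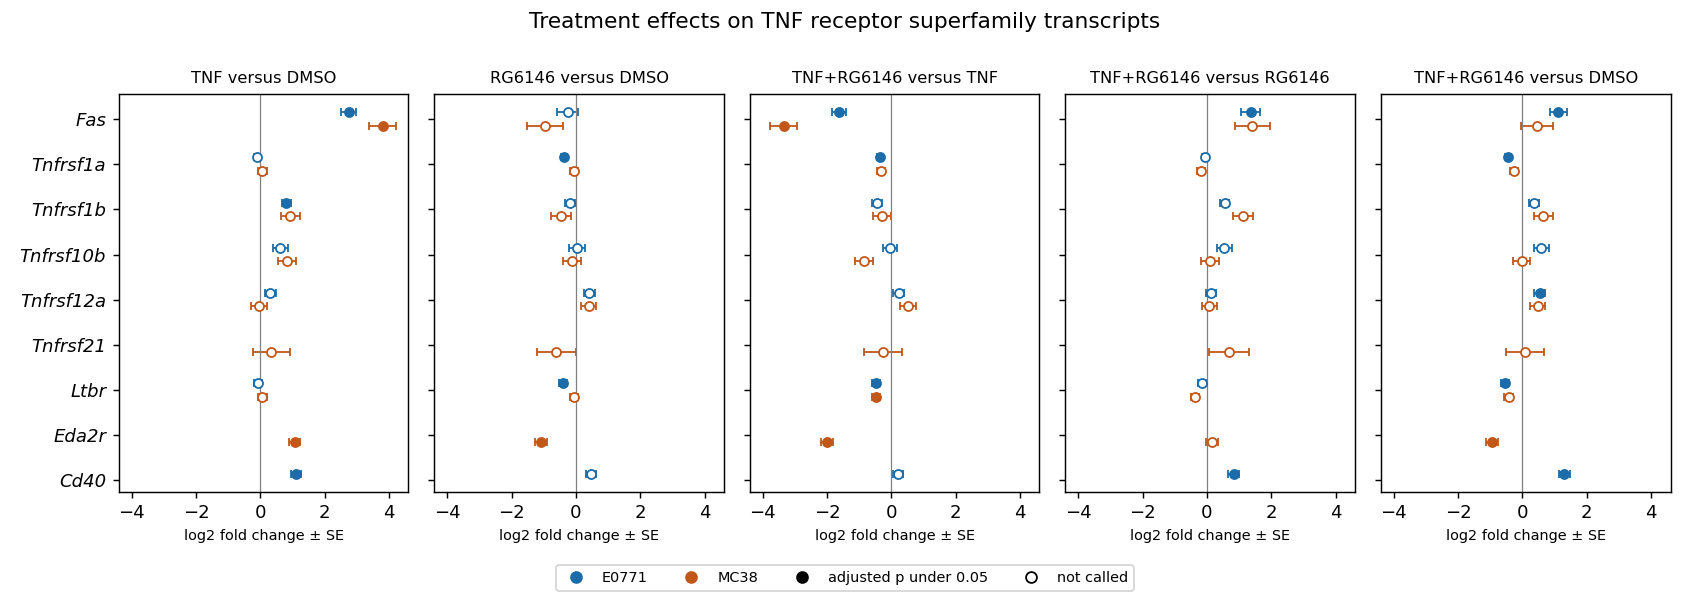
Log2 fold changes ± SE (horizontal axes) of each receptor transcript in 5 comparisons, E0771 in blue and MC38 in orange; filled points have an adjusted p under 0.05. Fas moved furthest in both lines, up with TNF (2.74 and 3.80) and down when RG6146 was added to TNF (-1.62 and -3.35).

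Counted together, TNF raised 3 of the 7 members tested in E0771 and lowered 0, where 2.32% of the 12541 genes tested were called (1.88% higher and 0.439% lower), and for 3 members the groups did not overlap, as for 13.8% of genes. In MC38 it raised 2 of 8 and lowered 0, where 1.09% of 13272 genes were called (1.02% higher and 0.0678% lower), and for 4 the groups did not overlap (15.5% of genes). The median log2 change of the tested members was 0.62 in E0771 and 0.58 in MC38, beside -0.02 and 0.02 over all genes. Receptors known to respond to TNF are among the 9, and they were chosen with results of these data known, so these shares describe the list and support nothing else.
RG6146 alone lowered 2 of 7 in E0771 and raised 0, where 10.8% of genes were called (3.96% higher and 6.86% lower), and for 3 members the groups did not overlap (39.1% of genes). It lowered 1 of 8 in MC38 and raised 0, where 8.27% were called (3.37% higher and 4.91% lower), and for 3 the groups did not overlap (27.7% of genes). The members' medians were -0.18 and -0.29, against 0.00 and -0.01 over all genes. Read against these backgrounds, the share of members without overlap under RG6146 alone was near that of all genes in both lines.
The combination against TNF lowered 3 of 7 in E0771 and raised 0 (16.6% of genes called, 7.12% higher and 9.46% lower), with no overlap for 4 (29.9% of genes). In MC38 it lowered 3 of 8 and raised 0 (11.3% called, 3.7% higher and 7.6% lower), with no overlap for 5 (33.7% of genes), and the medians were -0.34 and -0.40 against 0.00 and -0.03. Against RG6146 the combination raised 2 of 7 in E0771 (0.734% of genes called, 0.678% higher and 0.0558% lower), with no overlap for 3 (19.3% of genes). In MC38 0 of 8 were called against RG6146 by edgeR, DESeq2 or limma-voom (0.294% of genes called by edgeR, 0.279% higher and 0.0151% lower), with no overlap for 3 (13.6% of genes), and 3 members (Fas, Tnfrsf1b and Ltbr) had an unadjusted p under 0.05. Against DMSO the combination raised 3 and lowered 2 of 7 in E0771 (16.1% of genes called, 6.69% higher and 9.38% lower), with no overlap for 6 (43.5% of genes). In MC38 it lowered 1 of 8 and raised 0 (9.4% called, 3.93% higher and 5.46% lower), with no overlap for 2 (28.4% of genes). Scaling by library totals in place of TMM moved the median of all genes to -0.11 for TNF against DMSO and for the combination against DMSO in E0771, and changed the sign of no called value.

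Whether the 2 treatments combined other than additively on the log2 scale was tested as the TNF effect in the presence of RG6146 less that in its absence. This difference was -1.37 ± 0.40 for Fas in E0771 (unadjusted p = 0.00388, adjusted p = 1.0) and -2.40 ± 0.73 in MC38 (unadjusted p = 0.00552, adjusted p = 0.818). For Eda2r it was -0.91 ± 0.26 in MC38 (unadjusted p = 0.00318) and for Ltbr -0.42 ± 0.19 (unadjusted p = 0.0456), and these 3 members in MC38 and Fas in E0771 were all that had an unadjusted p under 0.05. By edgeR, as by DESeq2 and limma-voom, 0 of 7 members in E0771 and 0 of 8 in MC38 were called, and over all genes 0.0478% and 0% were. For Cd40 in E0771 the difference was -0.27 ± 0.23 and for Tnfrsf1b in MC38 0.19 ± 0.42.

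**Figure D3:**
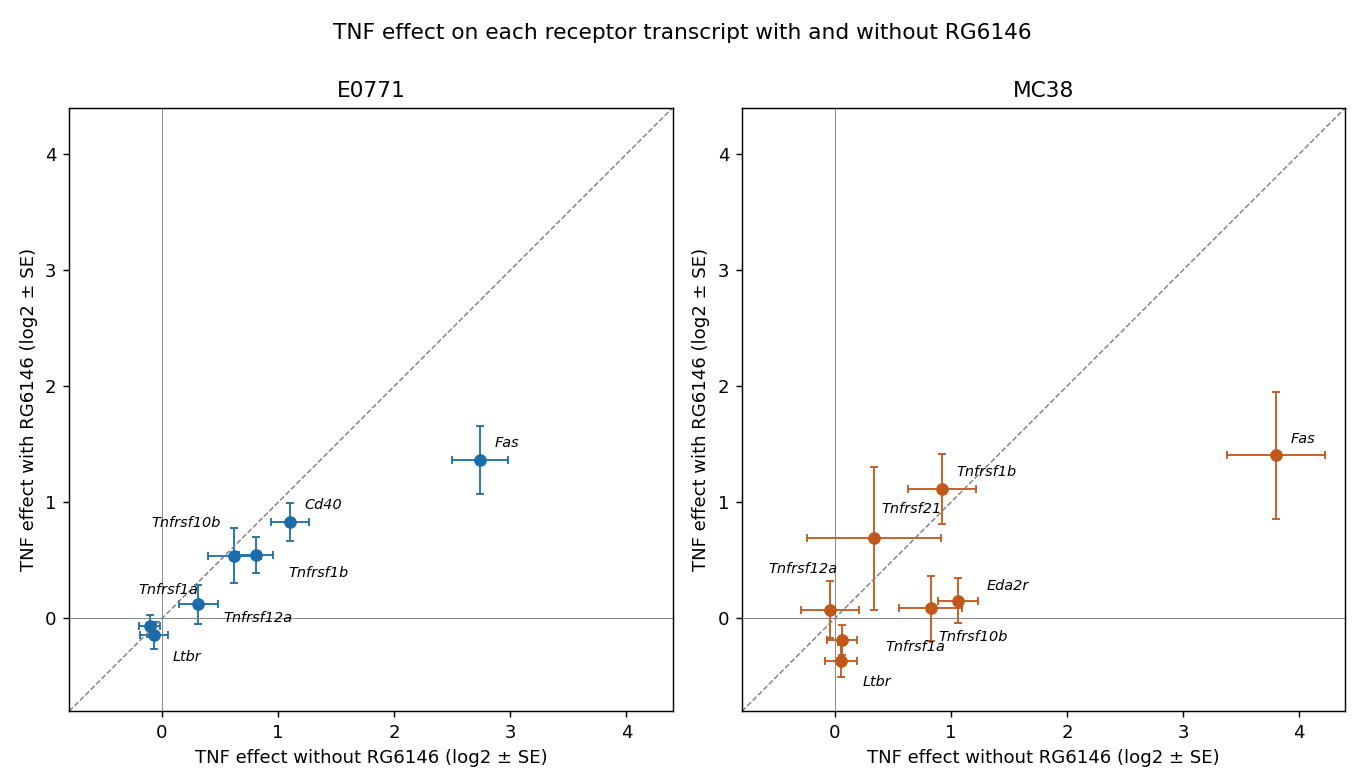
Log2 effect of TNF ± SE on each tested receptor transcript without RG6146 (horizontal axis) and with it (vertical axis), per line; the dashed line marks equal effects. Fas lies furthest below the line in both (2.74 against 1.37 in E0771 and 3.80 against 1.40 in MC38), and the 2 axes share no library.

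Between the lines, 5 of the 9 members differed in level with DMSO (3 higher and 2 lower in E0771, where 58.7% of 14058 genes were called, 28.9% higher and 29.9% lower), namely Tnfrsf1a, Tnfrsf1b, Cd40, Tnfrsf21 and Eda2r. For Fas no difference in level was called (0.39 ± 0.43, adjusted p = 0.458). No member's response to TNF or to RG6146 alone was called different between the lines by edgeR, DESeq2 or limma-voom, where 0.206% and 0.384% of genes were, with 0 and 1 members at an unadjusted p under 0.05. The effect of RG6146 on Fas in the presence of TNF was 1.66 ± 0.47 log2 units less negative in E0771 than in MC38 (unadjusted p = 0.00193, adjusted p = 0.0618), where 2.28% of genes were called and 2 members had an unadjusted p under 0.05. DESeq2 called that difference (adjusted p = 0.0496), limma-voom did not, and 5 of its 18 alternatives did.

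Of 19 other receptors of the superfamily, 4 passed the filter in E0771 and 6 in MC38. Tnfrsf9 (4-1BB, a costimulatory receptor) rose by 0.68 ± 0.16 with TNF in E0771 (adjusted p = 0.037), and Relt rose with RG6146 in E0771 (1.34 ± 0.23, adjusted p = 0.0019) and in the combination against TNF in both lines (1.24 ± 0.24 in E0771 and 1.51 ± 0.37 in MC38, adjusted p = 0.00264 and 0.0197). Of the 101 counts of Tnfrsf9 in the MC38 combination, 86 lay in the replicate with leukocyte transcripts, as did 110 of the 135 counts of Tnfrsf18 in the whole line. Among 18 ligands, 3 passed in E0771 and 4 in MC38. The Tnf transcript had 25, 37 and 16 counts with TNF in E0771 against 0, 1 and 0 with DMSO, a ratio of 67.2 (95% exact interval 11.7 to 2686, counting error only), and 11, 4 and 8 in the combination, a fall of 1.27 ± 0.40 against TNF (adjusted p = 0.0463). In MC38 Tnf had 34 counts in all, 31 of them in the library with leukocyte transcripts. Tnfsf10, which encodes TRAIL, the ligand of Tnfrsf10b, fell by 1.99 ± 0.21 with RG6146 in E0771, from 16.2 to 4.03 CPM on average (adjusted p = 4.71e-05). Fasl, the ligand of Fas, had 9 counts over the 12 E0771 libraries and 8 over those of MC38, 7 of the 8 in the library with leukocyte transcripts.

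Downstream, of 19 adaptors and ubiquitin enzymes tested in E0771 TNF raised 3, against 1.88% of all genes tested (median of the list 0.14, all genes -0.02), among them Tnip1 (2.36 ± 0.16) and Traf1 (1.86 ± 0.16). In MC38 it raised 6 of 20, against 1.02% of all genes (median 0.22, all genes 0.02), among them Traf1 (1.18 ± 0.12) and Birc2 (1.68 ± 0.18). Against TNF the combination lowered 6 of 19 in E0771 and 4 of 20 in MC38, where it lowered 9.46% and 7.6% of all genes, Traf1 by 2.34 ± 0.17 in E0771 and by 1.67 ± 0.13 in MC38. Of the NF-kB kinases, subunits and inhibitors TNF raised 6 of 15 in E0771 and 4 of 15 in MC38 (medians 0.66 and 0.62, the same shares of all genes as above), with the inhibitor Nfkbia at 3.51 ± 0.09 and 3.46 ± 0.13. In the E0771 combination Nfkbia rose by a further 1.04 ± 0.08 over TNF, the opposite direction to Fas and Traf1 in that comparison.
Of the death effectors and their inhibitors TNF raised 2 of 15 in E0771, Bcl2l11 (0.71 ± 0.10) and Mcl1 (0.46 ± 0.10), against 1.88% of all genes. By edgeR it raised 0 of 16 in MC38, against 1.02% of all genes, and 2 of the 16 had an unadjusted p under 0.05. RG6146 raised 1 and lowered 3 of 15 in E0771, where 10.8% of all genes were called in either direction. In MC38 it raised 1 and lowered 1 of 16, a share of 12.5% against 8.27% of all genes, which is near the background. Bcl2l11, which encodes the death-promoting BIM, rose in both (0.58 ± 0.10 and 1.53 ± 0.19), Bcl2l1, which encodes the survival protein BCL-XL, fell in both (-1.22 ± 0.12 and -0.93 ± 0.19), and Casp8, the caspase recruited by Fas and Tnfrsf10b, fell in E0771 (-1.06 ± 0.21). Of the p53 targets, TNF raised 4 of 16 in E0771 and 3 of 15 in MC38, Mdm2 and Cdkn1a in both, against 1.88% and 1.02% of all genes. RG6146 raised 2 and lowered 5 of these targets in E0771 (43.8%, against 10.8% of all genes called) and raised 2 and lowered 2 in MC38 (26.7%, against 8.27%). Of 10 integrated stress response genes, RG6146 raised 7 and lowered 1 in E0771 and raised 5 in MC38, where it raised 3.96% and 3.37% of all genes. Among them was Ddit3, which encodes the transcription factor CHOP (0.98 ± 0.11 and 1.74 ± 0.15).

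The genes whose levels across libraries were most like those of Fas were Oaf, Stx11, Casp4, Bcl3, Sik1 and Hivep2. Likeness was Pearson's r of log2 CPM with Fas over the 12 libraries of each line apart, ranked by the smaller of the 2 among 10336 genes, and is given as a description, since the libraries share treatment groups. Oaf led with r = 0.962 in E0771 and 0.936 in MC38, and Hivep2 came 6th with 0.932 and 0.913. Stx11 encodes a syntaxin of granule secretion, Casp4 the mouse inflammatory caspase-11, Bcl3 an atypical IkB protein and Sik1 a salt-inducible kinase. All 6 rose with TNF and fell in the combination against TNF in both lines, as Fas did. They were picked for likeness to Fas over these same libraries, so this shared direction follows from the choice and is no separate result. Their TNF effects ran from 0.89 ± 0.15 (Sik1) to 2.24 ± 0.15 (Stx11) in E0771 and from 1.19 ± 0.23 (Oaf) to 2.54 ± 0.20 (Stx11) in MC38. The fitted TNF effect on Fas was larger than each of these in both lines, though no test of that difference was made.

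**Figure D4:**
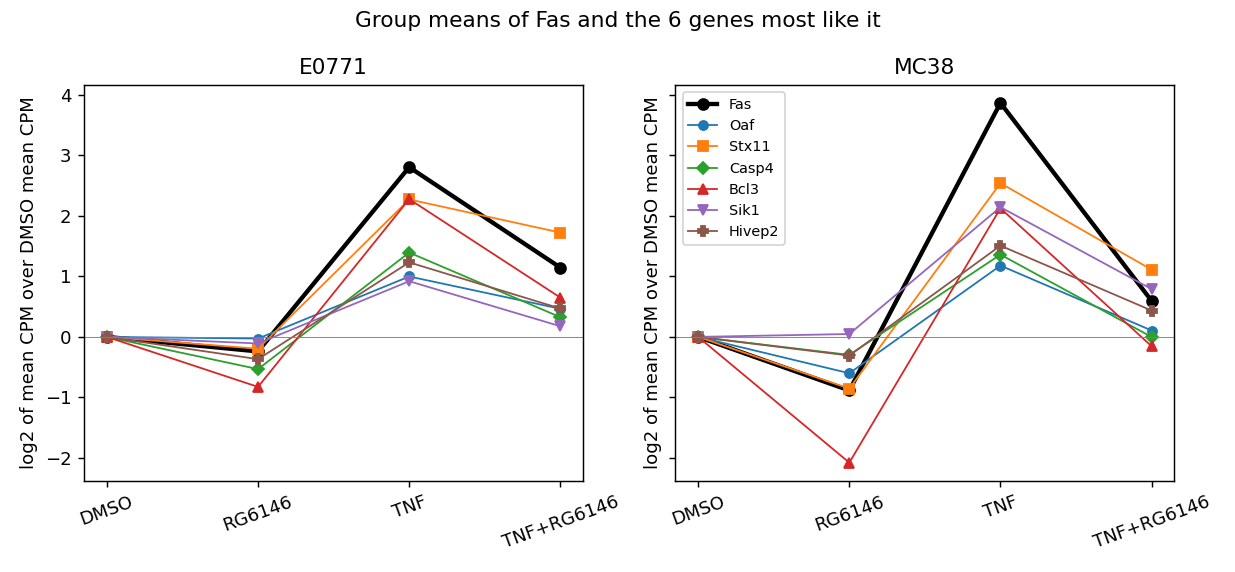
Log2 ratio of each group's mean CPM to the DMSO mean of its line (vertical axis) for Fas (black) and the 6 genes most like it, by treatment. All peak with TNF and are lower in the combination, and the 6 were picked for likeness to Fas over these libraries. By the fitted values, Stx11 stays 1.72 (E0771) and 1.08 (MC38) log2 units above DMSO in the combination.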

How the data were processed

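The analysis used 1 table of raw read counts per gene that the authors deposited, with 43629 genes and 24 libraries. Per the labels' protocols, 500 ng of RNA went into each library, the kit primes at transcript 3′ ends, and reads were single ends of 75 bp. Per the submitters' processing notes, bcl2fastq 2.17.1.14, cutadapt 1.14, HISAT2 2.1.0, mm10 and featureCounts of Subread 1.5.2 were used. For the strand setting and the annotation release, the value is not given in the sources used here. Because reads come from the 3′ end, counts do not resolve isoforms such as soluble forms of a receptor.

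The 9 genes and the 11 gene lists were chosen with earlier results of these data known. All 9 are named. Of each list and comparison, up to 2 called genes with the smallest p in each direction may be named; the other receptors and ligands given by their counts alone were picked after their values were seen. The 6 genes most like Fas needed a mean count of at least 20 in each line.

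Each line was fitted apart (12 libraries in 4 groups) in R 4.3.3 with edgeR 4.0.16: filterByExpr (12541 genes kept in E0771, 13272 in MC38), TMM factors and the quasi-likelihood F test, two-sided. Line differences came from a joint model (24 libraries, 14058 genes). Fold changes use a prior count of 0.125, and likeness used log2 CPM with a prior count of 2. Positions are from GENCODE vM21 on GRCm38. Alternatives were DESeq2 1.42.0, limma-voom (limma 3.58.1), library totals, no filter, only the groups compared, a replicate block, each library left out, and the 4 libraries that stood apart left out. Same-numbered libraries did not deviate together, so the numbers were not taken as pairs. The scripts were tested on simulated data. Libraries of about 5392406 to 9673118 counts leave Fas at 5 to 20 counts without TNF, which limits its precision there.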

Additional observations from a re-analysis of the deposited data

How the results depend on the processing

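No called value changed its sign in any alternative. Of 1835 recomputed fold changes, 1753 stayed on the same side of the threshold, 51 lost a call and 31 gained one, and 96 values uncalled in both settings had the other sign. The 1753 include values uncalled in both settings, while only a result called in the main analysis can lose a call. Their share is therefore not the rate at which calls held. The rise of Fas with TNF and its fall in the combination against TNF were called in all 13 alternatives in both lines, as were the falls of Eda2r with RG6146 and in the combination, and the rises of Tnfrsf1b and Cd40 with TNF in E0771. Among the members called, RG6146 against DMSO in E0771 gave 2 in the main analysis, 1 with limma-voom and 4 with only the groups compared. It gave 1 with the replicate block, 3 without the 4 libraries that stand apart and 0 to 1 with each library left out. The combination against RG6146 in E0771 gave 2, then 1 with DESeq2, library totals, limma-voom or the replicate block, 4 with only the groups compared and 0 to 1 with each library left out. The combination against TNF in E0771 gave 3, then 1 with only the groups compared, 4 with limma-voom, library totals, no filter or without the 4 libraries that stand apart, and 2 to 4 with each library left out. The combination against DMSO gave 5 in E0771, then 7 with only the groups compared, 6 with no filter, 4 with library totals and 3 to 4 with each library left out. In MC38 it gave 1, 2 with library totals or with no filter and 1 to 2 with each library left out. The combination against TNF in MC38 gave 3, then 4 with DESeq2, library totals or no filter. It gave 2 with the replicate block, with only the groups compared or without the 4 libraries that stand apart, and 2 to 3 with each library left out. TNF against DMSO in MC38 gave 2, then 1 with only the groups compared and 3 with no filter. TNF against DMSO in E0771 gave 3, then 4 with no filter and 3 to 4 with each library left out. With no filter on low counts the MC38 interaction (Fas, adjusted p = 0.00504) and the MC38 combination against RG6146 (Tnfrsf1b) went from 0 to 1. The line difference in the RG6146 effect under TNF went from 0 to 1 with DESeq2 and with no filter, and to 0 to 1 with each library left out. The cause of these changes was not tested. Fits that leave libraries out also have fewer libraries.

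Replicate numbers did not pair the libraries: correlations of same-numbered deviations were -0.135 to 0.0934 in E0771 and -0.29 to 0.211 in MC38, where 5 of 18 pairs were above 0.1, and their medians (-0.0115 and -0.0602) were below those of differently numbered libraries (0.00328 and 0.0211). With the number as a replicate block, Fas in the combination against RG6146 in E0771 (adjusted p = 0.0998), Ltbr with RG6146 in E0771 (0.0776) and Ltbr in the combination against TNF in MC38 (0.0635) lost their calls, and no other member's call changed.

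Over all genes the number called moved by over 1.5 times in 102 of 232 recomputations. In E0771 the range was 110 to 622 for TNF (291 in the main analysis), 728 to 3108 for RG6146 (1357), 881 to 2898 for the combination against TNF (2079), 57 to 534 against RG6146 (92), 1291 to 3852 against DMSO (2015) and 0 to 27 for the interaction (6). In MC38 it was 69 to 574 (145), 479 to 1322 (1098), 751 to 2394 (1500), 18 to 355 (39), 735 to 1803 (1247) and 0 to 211 (0) in the same order. Between lines it was 7 to 514 for the TNF response (29), 24 to 180 for the RG6146 response (54) and 65 to 1101 for the RG6146 effect under TNF (320).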

Other observations

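Of 6 ligands of the family tested for a difference between the lines with DMSO, 5 were called (58.7% of all genes tested were). Tnfsf9, the ligand of Tnfrsf9, had 167 counts over the 12 MC38 libraries and 0 over those of E0771. Eda, whose splice forms bind Edar or Eda2r, had 315 counts in MC38, the line that expressed Eda2r, and 3 in E0771, and was called in no comparison of treatments within MC38. Tnfsf10 had 763 counts in E0771 and 33 in MC38, 14 of the 33 in the combination library that held leukocyte transcripts. Tnfsf12, which encodes TWEAK, the ligand of Tnfrsf12a, had 138 counts in E0771 and 669 in MC38, and Tnfsf13 had 87 and 581. The receptors Edar, Tnfrsf14, Tnfrsf19 and Tnfrsf11b had 0 counts in E0771, and in MC38 they had 1, 6, 2 and 7 counts. In E0771, Fasl had 2 counts in each RG6146 library, 1 in each combination library and 0 in all DMSO and TNF libraries, which is too few for a test.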
